A study of Mus musculus with 16 samples.

Results

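The gp130 and oncostatin M receptor system was followed in mouse skin through 9 genes, namely the shared receptor subunit Il6st, the receptor chains Osmr, Lifr, Il31ra, Il6ra and Il11ra1, and the ligands Osm, Lif and Il6. The genes were chosen by symbol, and a probe set was assigned where the platform annotation gave exactly 1 of these symbols. This found 18 probe sets for 8 of the 9 genes, out of 18194 genes with such a probe set. Il11ra1 had none and was not analysed here. The probe set with the highest mean over all arrays stood for its gene, and the others served as a check. Of the 8 genes, Il6st, Osmr, Lifr, Il6ra and Il31ra passed a filter on low values (a log2 value above 4 in at least 2 arrays) and were tested with 12087 genes in all, while Osm, Lif and Il6 did not pass.

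Whole skin from the back of female mice of the inbred strain C57/B6 (so written in the source and protocol labels; the titles have C57/B7) was biopsied at day 0 at 8.5 weeks of age and again at day 5 after 4 days of daily topical application. Day-5 skin had received tofacitinib (3 arrays, mice 7, 8 and 9), ruxolitinib (2 arrays, mice 4 and 6) or the vehicle dimethyl sulfoxide (DMSO; 2 arrays, mice 2 and 3), and 9 arrays came from untreated skin at day 0 (mice 1 to 9). Every mouse with a day-5 array, those given DMSO included, had been biopsied at day 0, and no array of untreated skin at day 5 was analysed here, so the effects of DMSO, of the earlier biopsy and of the days that passed cannot be told apart. Both drugs inhibit Janus kinases and share a pyrrolopyrimidine core, which tofacitinib links to a piperidine and ruxolitinib to a pyrazole. Neither dose was stated in the labels. For mouse 7 at day 5, a free-text label says ruxolitinib, against tofacitinib in the remaining fields, which set its group.

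Values are log2 expression values of Affymetrix arrays. Array medians lay between 3.75 and 3.94, and 27 control probe sets without a target in mouse RNA ranged up to 2.43 around a median of 1.70, and values up to that highest one are called background here. Of 7 markers each of basal keratinocytes, fibroblasts, endothelium and skeletal muscle, 0 lay at background in all arrays. Of 7 basal keratinocyte markers, 7 fell in each treatment arm against day 0. Of all tested genes, 27.4% fell with tofacitinib, 21.4% with ruxolitinib and 28.9% with DMSO. The summed linear level of these markers was 24334 to 27921 in tofacitinib skin, 23374 to 30714 in ruxolitinib skin and 23364 to 23400 in DMSO skin, against 38614 to 47892 at day 0. The 7 endothelial markers, of which 5 passed the filter through day-5 arrays alone and so give no count of rises, had a summed level of 245 to 346 with tofacitinib, 251 to 308 with ruxolitinib and 314 to 523 with DMSO, against 41 to 145 at day 0. In bulk skin, fewer cells of a type and less RNA per cell cannot be told apart.

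Cytokines of the interleukin-6 family signal through gp130, the product of Il6st, which is joined by a second chain that depends on the ligand. Oncostatin M uses gp130 with OSMR, leukaemia inhibitory factor uses gp130 with LIFR, and interleukin-6 uses gp130 with its binding receptor IL-6Rα (Il6ra). OSMR also pairs with IL-31RA, without gp130, to form the receptor of the itch cytokine interleukin-31. The receptors carry JAK1, JAK2 and TYK2, which phosphorylate STAT3 and other STAT proteins, and SOCS3 limits the signal by binding gp130. In skin, oncostatin M acts on keratinocytes, and interleukin-31 on sensory neurons and keratinocytes.

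Il6st and Il31ra are neighbours on chromosome 13 with 0 annotated genes starting between them, Osm and Lif are neighbours on chromosome 11 with 0 between them, and Osmr and Lifr lie on chromosome 15 with 0 protein-coding genes between them (RefSeq, GRCm38.p6). Promoters of 300 bases around the annotated start were matched in RefSeq for 8 of the 9 members, all except Osm. They were searched on both strands for TTCNNNGAA, the letters of a STAT site, and for TGANTCA. The second pattern allows any middle base and so is wider than an AP-1 site, whose middle base is C or G. The Osmr match given below has T there. Both motifs read the same on either strand and do not overlap each other in these promoters. TTCNNNGAA occurred in 8.3% and TGANTCA in 7.81% of 32851 mouse promoters of this length. Il31ra held TTCCAGGAA with its first base 191 bases before the start, Osmr held TGATTCA from base 4 after the start, Il6 held TGAGTCA and Lif TGACTCA, and these letters were not in the windows of Il6st, Lifr, Il6ra or Il11ra1. The promoters of Osmr and Il31ra are shown because their products form a single receptor, beside that of Socs3, the feedback inhibitor of the pathway described below, which held TTCTTAGAA with its first base 154 bases before the start. Each runs 5′ to 3′ along the gene's own strand, which is the minus strand for all of them, and capitals mark the motif: Osmr at chr15:6874264-6874563, Il31ra at chr13:112580613-112580912 and Socs3 at chr11:117969317-117969616. A match is a description of the letters, not evidence of binding.
Osmr: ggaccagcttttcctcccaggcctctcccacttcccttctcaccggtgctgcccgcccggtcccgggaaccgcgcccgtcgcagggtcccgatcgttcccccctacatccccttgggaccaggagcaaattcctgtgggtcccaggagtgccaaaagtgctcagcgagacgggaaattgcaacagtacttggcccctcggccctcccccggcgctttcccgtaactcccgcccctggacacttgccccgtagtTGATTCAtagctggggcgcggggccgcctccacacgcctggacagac
Il31ra: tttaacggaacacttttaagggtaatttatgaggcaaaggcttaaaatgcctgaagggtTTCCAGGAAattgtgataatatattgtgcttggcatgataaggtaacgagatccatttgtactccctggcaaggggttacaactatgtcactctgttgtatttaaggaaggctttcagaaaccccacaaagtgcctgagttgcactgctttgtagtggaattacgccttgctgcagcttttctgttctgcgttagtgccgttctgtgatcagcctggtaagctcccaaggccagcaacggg
Socs3: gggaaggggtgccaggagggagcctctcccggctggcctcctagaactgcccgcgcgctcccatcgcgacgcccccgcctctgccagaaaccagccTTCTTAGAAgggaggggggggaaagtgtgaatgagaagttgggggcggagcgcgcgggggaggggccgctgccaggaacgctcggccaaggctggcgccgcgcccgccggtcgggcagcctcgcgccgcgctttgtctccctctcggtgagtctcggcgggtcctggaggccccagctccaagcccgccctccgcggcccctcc

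Il6st, the shared subunit gp130, rose with tofacitinib and DMSO by its main probe set (1452843_at), and was the 1 tested member to do so. Its log2 values were 10.88, 10.88 and 11.22 with tofacitinib, 10.81 and 10.78 with ruxolitinib, and 11.04 and 11.25 with DMSO, against 9.78 to 10.88 at day 0 (median 10.57, n = 9). Both DMSO arrays lay above every day-0 array, the tofacitinib arrays overlapped only the highest of them, and the ruxolitinib arrays lay within the day-0 range. The log2 difference from day 0 was 0.46 ± 0.18 for tofacitinib (SE, limma, adjusted p = 0.0446), 0.23 ± 0.21 for ruxolitinib (adjusted p = 0.414) and 0.61 ± 0.21 for DMSO (adjusted p = 0.0243). Within mice, Il6st went up by 0.27, 0.42 and 0.65 in the tofacitinib mice and by 0.53 and 0.79 in the DMSO mice, and stood at -0.07 in each of the ruxolitinib mice. The DMSO call was lost without DMSO mouse 2 (adjusted p = 0.0826) or mouse 3 (adjusted p = 0.2) in limma. The tofacitinib call was lost without tofacitinib mouse 8 (0.0763) or 9 (0.221), without DMSO mouse 2 or 3 (0.0599 each), with all genes unfiltered (0.0535), with quantile normalization (0.0587) and with the mean of the probe sets (0.0804), all limma adjusted p.

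The day-0 array of mouse 1 had an Il6st value of 9.78, below the other day-0 arrays by more than their spread. Without it the differences were 0.37 for tofacitinib (limma adjusted p = 0.0214), 0.14 for ruxolitinib (0.448) and 0.53 for DMSO (0.00741). The other probe sets of Il6st did not follow a single direction. Probe set 1460295_s_at was higher with tofacitinib by 1.39 ± 0.32 (limma adjusted p = 0.00289) and with DMSO by 1.64 ± 0.38 (0.00297), and stood at 0.56 ± 0.38 with ruxolitinib (0.263). Probe set 1437303_at was lower with tofacitinib by 0.81 on the log2 scale, a difference of -0.81 ± 0.28 (limma adjusted p = 0.0248), and stood at -0.49 ± 0.32 with ruxolitinib (0.25) and -0.60 ± 0.32 with DMSO (0.139). The direction of Il6st therefore depended on the probe set.

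**Figure D1:**
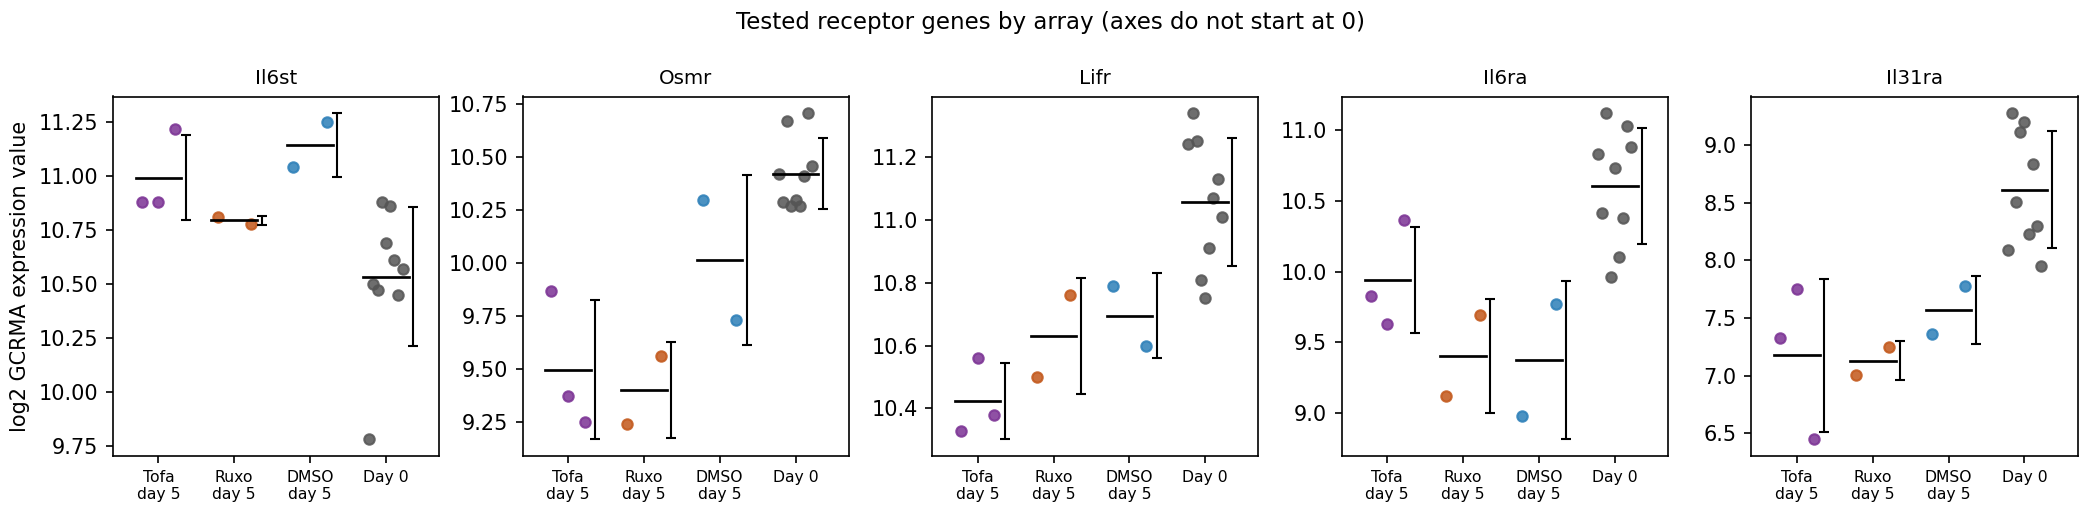
Log2 GCRMA value (y axis) of the main probe set of each tested member in each array, by group (x axis). Points are arrays, lines are group means and bars are SDs (n = 3, 2, 2 and 9). Every day-5 Il31ra array lies below every day-0 array, whereas the Il6st arrays of day 5 lie at or above the upper part of the day-0 range.

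Osmr, the partner of gp130 in the oncostatin M receptor, fell with both inhibitors by its main probe set (1418674_at). Its log2 values were 9.87, 9.37 and 9.25 with tofacitinib, 9.24 and 9.56 with ruxolitinib, and 10.30 and 9.73 with DMSO, against 10.27 to 10.71 at day 0 (median 10.41, n = 9). All 5 inhibitor arrays lay below every day-0 array, whereas 1 of the 2 DMSO arrays lay within the day-0 range. Osmr stood 1.91-fold lower than at day 0 with tofacitinib (log2 difference -0.94 ± 0.16, limma adjusted p = 0.000287) and 2.01-fold lower with ruxolitinib (-1.01 ± 0.18, adjusted p = 0.000904), and with DMSO the difference of -0.42 ± 0.18 did not pass (adjusted p = 0.0725). Within mice, Osmr changed by -0.54, -1.34 and -1.21 with tofacitinib, by -1.03 and -0.70 with ruxolitinib, and by 0.00 and -0.94 with DMSO, so the DMSO mice differed from each other. Under a fixed mouse block the ruxolitinib call was lost (-0.87, limma adjusted p = 0.101). The DMSO difference passed without DMSO mouse 2 (-0.69, limma adjusted p = 0.0388), without tofacitinib mouse 7 (-0.42, 0.0394) and with quantile normalization (-0.44, 0.0495).

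A second Osmr probe set gave another pattern. Probe set 1459217_at had log2 values of 5.42, 3.71 and 5.23 with tofacitinib, 4.25 and 4.95 with ruxolitinib, and 7.01 and 6.80 with DMSO, against 3.59 to 4.67 at day 0 (median 3.97). The DMSO arrays stood alone above all others, and each inhibitor group overlapped day 0. In a fit of every kept probe set on its own, in which 48.1% of 20992 probe sets were called with tofacitinib, 33.1% with ruxolitinib and 48.1% with DMSO, it stood 7.31-fold higher with DMSO than at day 0 (log2 difference 2.87 ± 0.35, limma adjusted p = 2.68e-05). The difference was 0.74 ± 0.30 with tofacitinib (adjusted p = 0.0504; 0.047 without ruxolitinib mouse 4 or 6, and 1.28 at 0.00136 without tofacitinib mouse 8) and 0.55 ± 0.35 with ruxolitinib (adjusted p = 0.237) in limma.

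Set directly against DMSO, probe set 1459217_at was 4.99-fold lower with ruxolitinib (log2 difference -2.32 ± 0.45, limma adjusted p = 0.0242) in a comparison that called 1.01% of probe sets. With tofacitinib, where 0.0667% of probe sets were called, the difference of -2.13 ± 0.42 did not pass (limma adjusted p = 0.0772, and 0.0357 without tofacitinib mouse 9). The mean of both inhibitors stood 4.67-fold lower than DMSO (-2.22 ± 0.38, limma adjusted p = 0.0172), where 0.734% were called. The ruxolitinib call was lost in limma without DMSO mouse 2 (adjusted p = 0.168) or 3 (0.092), without ruxolitinib mouse 4 (0.171) or 6 (0.0508), and under the fixed mouse block (-2.44, 0.248). The call for the mean was lost without DMSO mouse 2 (0.189) or 3 (0.1), without ruxolitinib mouse 4 (0.0581) and under the block (-2.30, 0.543), again as limma adjusted p. The remaining probe set, 1418675_at, lay near background at 2.22 to 3.61 in all arrays and was not tested. With the mean of the kept probe sets, Osmr stood at -0.09 with tofacitinib (limma adjusted p = 0.703), -0.23 with ruxolitinib (0.429) and 1.23 with DMSO (0.000501), so the direction of Osmr with DMSO, and its fall with the inhibitors, depended on the probe set. Which part of the transcript each probe set reads was not analysed here.

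**Figure D2:**
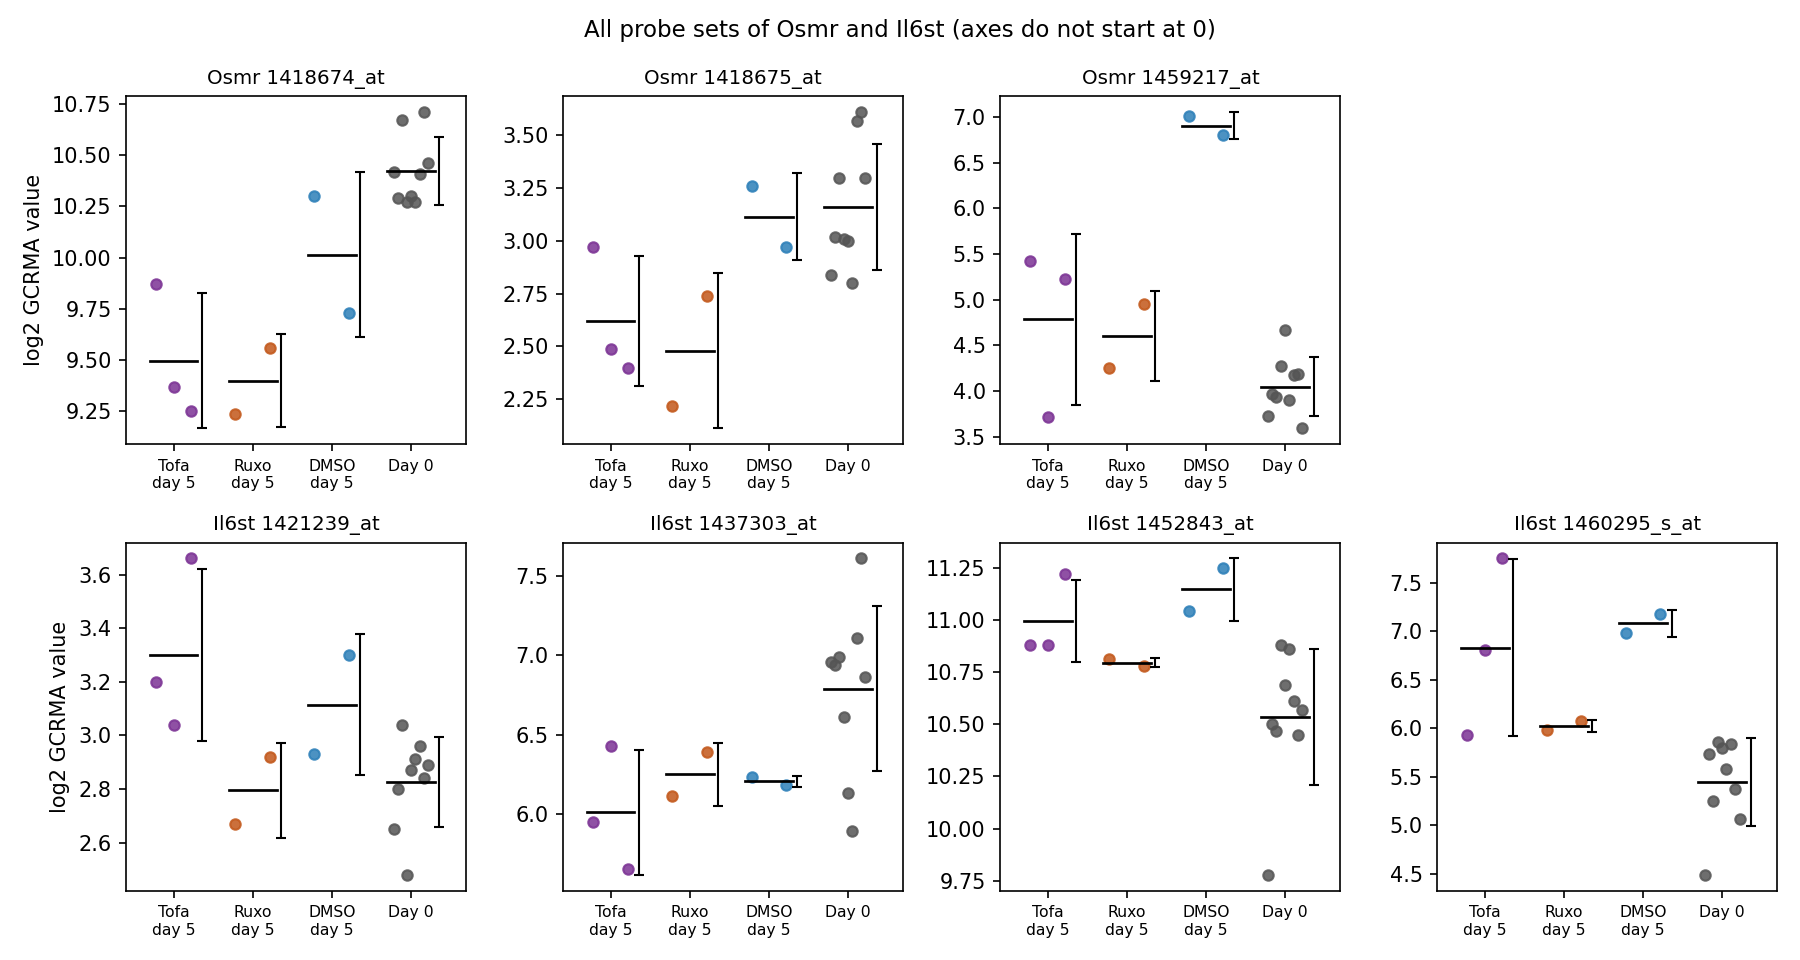
Log2 GCRMA value (y axis) of every probe set of Osmr (top) and Il6st (bottom) in each array, by group (x axis), with group means (lines) and SDs (bars; n = 3, 2, 2 and 9). In Osmr 1459217_at the DMSO arrays, at 7.01 and 6.80, lie above all others, while in Osmr 1418674_at the inhibitor arrays lie below day 0.

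Lifr, the receptor chain for leukaemia inhibitory factor, was lower with tofacitinib and DMSO. Its log2 values (1454984_at) were 10.33, 10.56 and 10.38 with tofacitinib, 10.50 and 10.76 with ruxolitinib, and 10.79 and 10.60 with DMSO, against 10.75 to 11.34 at day 0 (median 11.07, n = 9). The tofacitinib arrays lay below every day-0 array and the other arms each had 1 array at the lower edge of the day-0 range. Lifr was 1.56-fold lower with tofacitinib (log2 difference -0.64 ± 0.13, limma adjusted p = 0.00114) and 1.31-fold lower with DMSO (-0.39 ± 0.15, adjusted p = 0.0442), and the ruxolitinib difference did not pass (-0.41 ± 0.15, adjusted p = 0.0503). Within mice, Lifr changed by -0.58 to -0.74 with tofacitinib, by -0.31 and -0.14 with ruxolitinib, and by -0.56 and -0.65 with DMSO. The DMSO call was lost in 7 alternatives, namely without DMSO mouse 2 (limma adjusted p = 0.12) or 3 (0.344), without tofacitinib mouse 8 (0.0546) or 9 (0.0641), without the day-0 array of mouse 1 (0.0592), unfiltered (0.0521) and with the mean of the probe sets (0.619). With quantile normalization (0.0326) or without the filter (0.0499) the ruxolitinib difference passed. The other kept probe set, 1425107_a_at, lay between 4.66 and 6.36 and gave no call in these comparisons (-0.26 with tofacitinib, -0.48 with ruxolitinib, 0.08 with DMSO), and the mean of both probe sets ended the tofacitinib call (-0.45, limma adjusted p = 0.0719).

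Whether the oncostatin M and leukaemia inhibitory factor chains changed unequally was tested within the arrays. The log2 difference of Osmr and Lifr changed between the days by 0.20, -0.76 and -0.57 in the tofacitinib mice, by -0.72 and -0.56 in the ruxolitinib mice, and by 0.56 and -0.29 in the DMSO mice. The mean was -0.31 (SD 0.50, n = 7), lower in 5 of 7 mice, with p = 0.156 in an exact two-sided sign-flip permutation test, for which 0.0156 is the smallest p possible. The difference did not pass, and with the mean of the probe sets it turned to 0.59 (exact permutation p = 0.141).

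Il6ra, which binds interleukin-6 before gp130 is engaged, fell in every arm. Its log2 values (1452416_at) were 9.83, 9.63 and 10.36 with tofacitinib, 9.12 and 9.69 with ruxolitinib, and 8.98 and 9.77 with DMSO, against 9.96 to 11.12 at day 0 (median 10.73, n = 9). The ruxolitinib and DMSO arrays lay below every day-0 array, and 1 tofacitinib array lay within the day-0 range. Il6ra was 1.6-fold lower with tofacitinib (log2 difference -0.68 ± 0.25, limma adjusted p = 0.0351), 2.21-fold lower with ruxolitinib (-1.15 ± 0.30, adjusted p = 0.00834) and 2.37-fold lower with DMSO (-1.24 ± 0.30, adjusted p = 0.00325). Within mice, Il6ra changed by -0.55, -1.40 and -0.52 with tofacitinib, by -0.85 and -0.41 with ruxolitinib, and by -1.42 and -1.35 with DMSO. The calls were lost without tofacitinib mouse 7 (limma adjusted p = 0.0586) or 8 (0.185), without ruxolitinib mouse 4 (-0.84, 0.152) or under the fixed mouse block (-0.63, 0.157), and without DMSO mouse 2 (-0.83, 0.127). The other Il6ra probe set, 1422270_a_at, lay below the filter.

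Il31ra, the chain that joins OSMR in the interleukin-31 receptor, fell in every arm and had the largest log2 differences of the tested members with both inhibitors, which were not tested against those of the others. Its log2 values (1451535_at) were 7.33, 7.75 and 6.45 with tofacitinib, 7.01 and 7.25 with ruxolitinib, and 7.36 and 7.78 with DMSO, against 7.95 to 9.28 at day 0 (median 8.51, n = 9). All 7 day-5 arrays lay below all 9 day-0 arrays. Il31ra was 2.66-fold lower with tofacitinib (log2 difference -1.41 ± 0.30, limma adjusted p = 0.00176), 2.81-fold lower with ruxolitinib (-1.49 ± 0.36, adjusted p = 0.00548) and 2.1-fold lower with DMSO (-1.07 ± 0.36, adjusted p = 0.0219). Within mice, Il31ra changed by -1.50, -0.55 and -1.50 with tofacitinib, by -2.11 and -0.98 with ruxolitinib, and by -1.92 and -0.73 with DMSO. Its other probe set, 1445095_at, pointed the same way without passing, at -0.68 ± 0.32 with tofacitinib (limma adjusted p = 0.0913), -0.94 ± 0.38 with ruxolitinib (0.0676) and -0.92 ± 0.38 with DMSO (0.0565). The main calls were lost with ruxolitinib under the block (-1.54, limma adjusted p = 0.0552) or without ruxolitinib mouse 4 (-1.30, 0.0795), and with DMSO without DMSO mouse 2 (-0.83, 0.221) or 3 (-1.24, 0.0719).

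**Figure D3:**
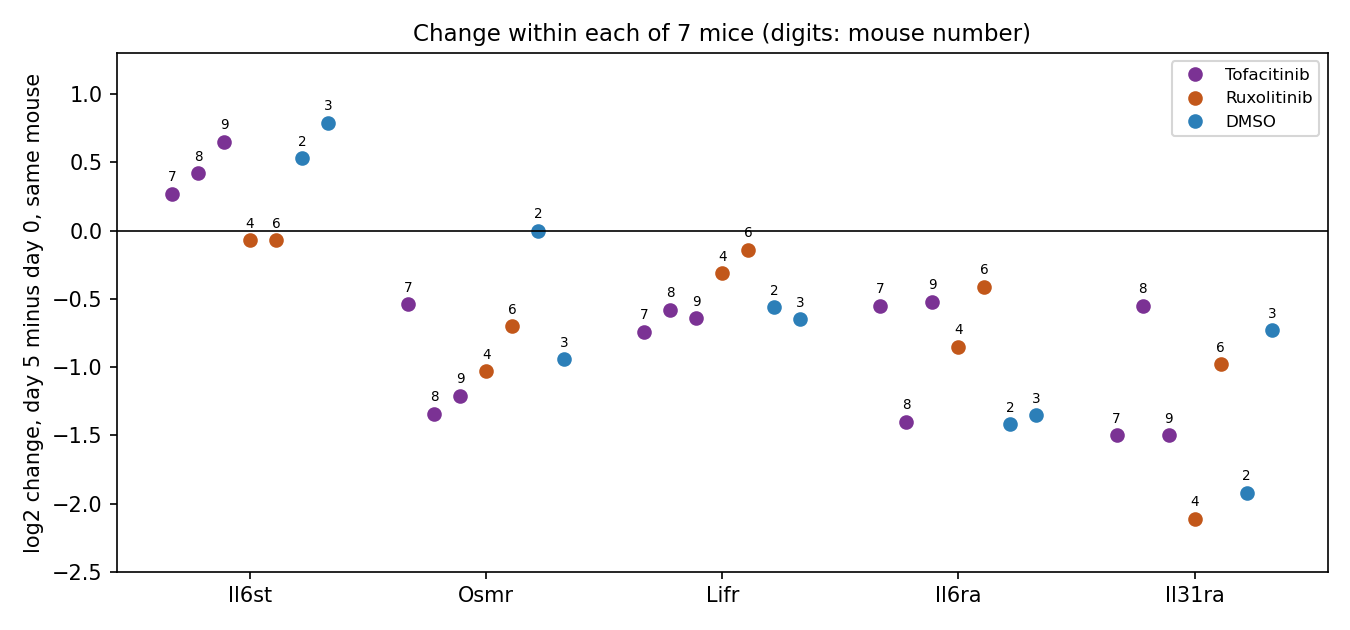
Log2 change from day 0 to day 5 in the same mouse (y axis) for the main probe set of each tested member (x axis), with 1 point per mouse and its number above. Lifr, Il6ra and Il31ra lie below 0 in all 7 mice, and Il6st lies above 0 in the tofacitinib and DMSO mice and at -0.07 in both ruxolitinib mice.

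The ligand genes lay near background. Osm, at 1.94, 2.01 and 1.97 with tofacitinib, 1.78 and 1.77 with ruxolitinib, and 1.61 and 1.77 with DMSO, against 1.57 to 1.89 at day 0, stayed under the highest control value in all 16 arrays. Il6 reached 2.68 in a tofacitinib array, 2.65 in a ruxolitinib array and 2.36 in a DMSO array, against 1.49 to 2.12 at day 0. Lif (1421207_at) lay between 2.48 and 3.60 with tofacitinib, at 2.51 and 2.73 with ruxolitinib and at 2.51 and 2.23 with DMSO, against 2.37 to 3.02 at day 0, and its second probe set between 2.22 and 2.67 over all arrays. Of the 16 arrays, Osm had 3, 2, 2 and 9 at or under the highest control value in the tofacitinib, ruxolitinib, DMSO and day-0 groups and Il6 had 2, 1, 2 and 9, whereas the main Lif probe set had 0, 0, 1 and 1. All 3 genes lay below the filter and were left out of the test.

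**Figure D4:**
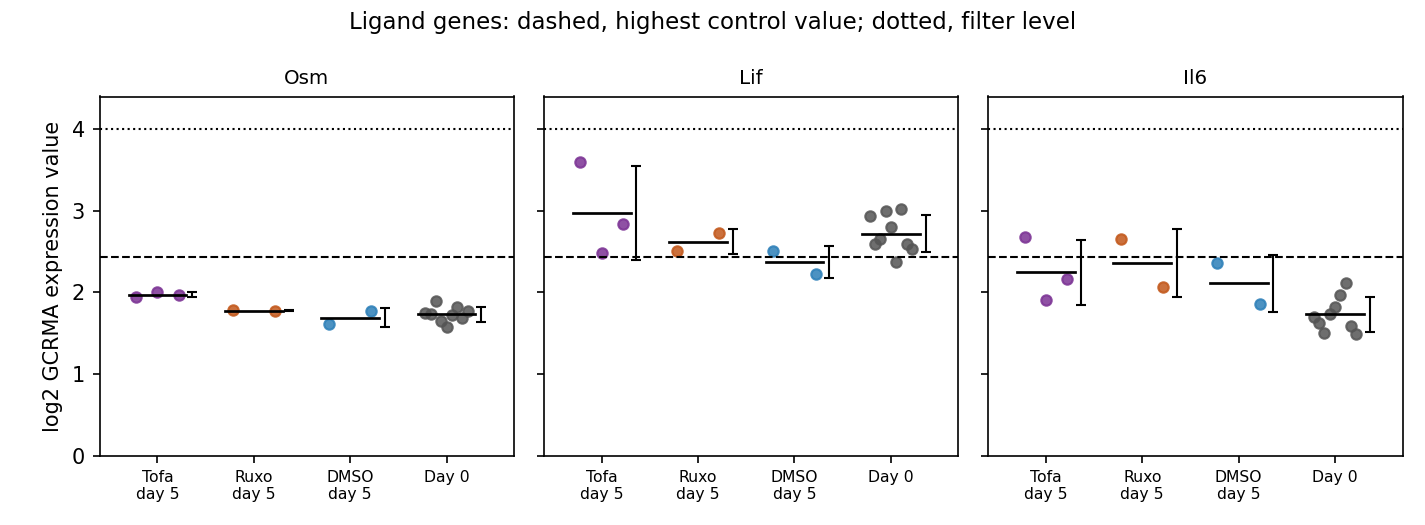
Log2 GCRMA value (y axis) of the ligand genes Osm, Lif and Il6 in each array, by group (x axis), with group means (lines) and SDs (bars; n = 3, 2, 2 and 9). The dashed line is the highest value of the control probe sets (2.43) and the dotted line the filter level (4); Osm lies under the dashed line in every array, and no array reaches the dotted line.

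Counted together, 4 of the 5 tested members fell and 1 rose with tofacitinib, where 50.1% of all tested genes were called (27.4% lower and 22.7% higher). With ruxolitinib 3 members were lower and 2 did not pass, where 34.0% of all genes were called (21.4% lower and 12.5% higher). With DMSO 3 members were lower, 1 was higher and 1 did not pass, where 51.1% were called (28.9% lower and 22.2% higher). The median log2 difference of the 5 members was -0.68 with tofacitinib, -1.01 with ruxolitinib and -0.42 with DMSO, against -0.023, -0.032 and -0.054 over all genes tested in the same order of arms. These 3 comparisons share the 9 day-0 arrays. Under the fixed mouse block 0 members were called with ruxolitinib in limma (3 at an unadjusted p under 0.05), where 1324 of all genes passed in place of 4104. The summed levels of the basal keratinocyte and endothelial markers given above separated day 5 from day 0 in every arm, and the T cell markers, of which 3 of the 4 tested passed the filter through day-0 arrays alone, had summed levels of 53 to 131 with tofacitinib, 66 to 88 with ruxolitinib and 112 to 113 with DMSO, against 410 to 1083 at day 0. The mast cell markers, of which 2 of the 5 tested passed through day-5 arrays alone, had summed levels of 198 to 402 with tofacitinib, 204 to 306 with ruxolitinib and 135 to 172 with DMSO, against 39 to 149 at day 0. The fibroblast markers, of which 4 of 7 rose in each arm, summed to 7719 to 11516 with tofacitinib, 8835 to 10508 with ruxolitinib and 5685 to 9278 with DMSO, against 1985 to 8317 at day 0. Of 7 skeletal muscle markers 5 rose with tofacitinib, 1 with ruxolitinib and 4 with DMSO, of 6 macrophage markers (1 of them over the filter in day-5 arrays alone) 3 rose in each arm, of 2 tested neutrophil markers 1 rose with tofacitinib and 0 in the other arms, and of 4 Schwann cell markers 1 rose with tofacitinib, 0 with ruxolitinib and 2 with DMSO. Their part in the members' changes was not tested.

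The inhibitors were then set against DMSO at day 5, which shares with them the biopsy and the days and is labelled as the vehicle alone. By their main probe sets, 0 of the 5 members passed with tofacitinib, ruxolitinib or the mean of both, in limma. Of all genes, 0.165% were called with tofacitinib (all of them higher), 0.521% with ruxolitinib (0.405% higher and 0.116% lower) and 0.935% for the mean (0.836% higher and 0.0993% lower). At an unadjusted p under 0.05, Osmr was the 1 of 5 members to pass in each of them, where 8.4% of all genes passed with tofacitinib, 15.7% with ruxolitinib and 13.9% for the mean. Osmr stood at -0.52 ± 0.22 with tofacitinib (95% interval -0.99 to -0.05, limma adjusted p = 0.497), -0.59 ± 0.24 with ruxolitinib (-1.10 to -0.08, adjusted p = 0.243) and -0.56 ± 0.20 for the mean (-0.99 to -0.13, adjusted p = 0.219). With the mean of its probe sets Osmr passed for ruxolitinib (-1.46, limma adjusted p = 0.0277) and for both inhibitors together (-1.39, adjusted p = 0.0166). For Il31ra the interval ran from -1.25 to 0.57 with tofacitinib and from -1.41 to 0.57 with ruxolitinib, and for Il6ra from -0.18 to 1.31 and from -0.72 to 0.92. A rise or a fall of either gene with either drug thus lies within the error.

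Tofacitinib and ruxolitinib were compared directly as the only pair of drugs, at the same time but at unknown doses. In limma 0.0248% of all genes were called, and 0 of the 5 members, with 0 at an unadjusted p under 0.05, where 5.67% of all genes passed. The log2 difference, tofacitinib minus ruxolitinib, was 0.07 for Osmr (95% interval -0.40 to 0.54), 0.23 for Il6st (-0.30 to 0.76), -0.23 for Lifr (-0.61 to 0.15), 0.47 for Il6ra (-0.28 to 1.21) and 0.08 for Il31ra (-0.83 to 0.99), with limma adjusted p from 0.915 to 0.984. These intervals do not show that the drugs acted alike.

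**Figure D5:**
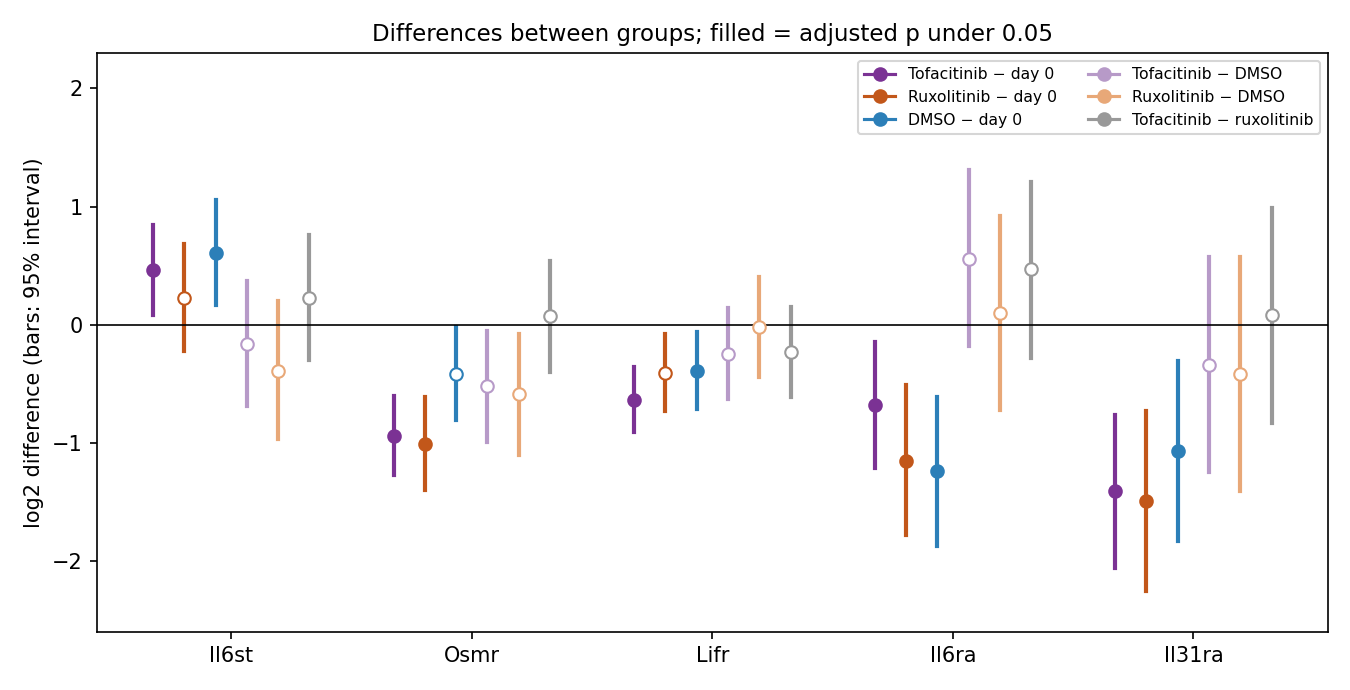
Log2 difference between groups (y axis, with 95% intervals from limma) for the main probe set of each tested member (x axis); filled points have an adjusted p under 0.05. Filled points occur only in the comparisons with day 0, and the Osmr intervals of both inhibitors against DMSO lie below 0 without passing after adjustment.

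The levels of the members over the 16 arrays were set beside each other as a description. Osmr and Lifr had a Pearson r of 0.807 and Osmr and Il31ra of 0.706, while Il6st had r of -0.750 with Lifr and -0.581 with Osmr. These values carry the difference between the days, and after each group mean was taken out they were 0.349, -0.164, -0.617 and -0.390 for the same pairs. The genes closest to Osmr were Cdh13 (r = 0.949), Il1rn (0.949) and Cd3e (0.946), those closest to Il6st were Chchd1 (0.965), Hexa (0.963) and Uqcr10 (0.962), and those closest to Il31ra were Btf3l4 (0.932), Akr1c18 (0.922) and Cst3 (0.921). Lifr stood closest to Cept1 (0.941) and Il6ra to Glg1 (0.937). With group means removed, Hexa remained among the 3 closest to Il6st (0.957), and the closest to Osmr was Dlg2 (0.948). These genes were picked for the highest r among the tested genes, so a high r was built into their choice. The far Il6st value of the day-0 array of mouse 1 (9.78) weighs on every Il6st r, also with group means removed, and no r was computed without it.

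Among 9 other ligands of the family, 2 were tested. Clcf1, which encodes a ligand of the ciliary neurotrophic factor receptor, rose in every arm. Its log2 values were 7.96 to 8.21 with tofacitinib, 8.71 and 8.73 with ruxolitinib and 7.72 and 9.05 with DMSO, against 5.08 to 6.36 at day 0, and it was 4.47-fold, 7.35-fold and 5.75-fold higher in these arms (log2 differences 2.16 ± 0.26, 2.88 ± 0.31 and 2.52 ± 0.31, limma adjusted p = 1.81e-05, 1.65e-05 and 2.19e-05). Ctf1, encoding cardiotrophin-1, fell with tofacitinib by 0.44 on the log2 scale (limma adjusted p = 0.0176) and with ruxolitinib by 0.53 (0.0228), and stood at 0.13 with DMSO (0.535). Under the mouse block the Ctf1 calls were lost (limma adjusted p = 0.118 with tofacitinib and 0.146 with ruxolitinib), as they were without tofacitinib mouse 7 (0.0803) or 9 (0.0558) and without ruxolitinib mouse 6 (0.264). Against DMSO 0 of these ligands passed in limma with tofacitinib, ruxolitinib or the mean of both. Of all genes 0.165%, 0.521% and 0.935% were called in these comparisons. Ctf1 was at an unadjusted p under 0.05 in each of them, where 8.4%, 15.7% and 13.9% of all genes passed. Without DMSO mouse 3 the Ctf1 difference for the mean was -1.04, against -0.62 with all arrays. Il31 lay at background in all arrays.

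Of 7 receptors related to gp130, 3 were tested. Cntfr passed the filter through day-5 arrays alone and Il12rb2 through day-0 arrays alone, so a difference was built into their choice and their levels are given without a test. Cntfr, the ciliary neurotrophic factor receptor that also binds the Clcf1 product, had log2 values of 5.48 to 6.38 with tofacitinib, 5.42 and 5.52 with ruxolitinib and 4.99 and 6.23 with DMSO, against 2.06 to 3.61 at day 0. Il12rb2, an interleukin-12 receptor chain, had values of 3.38 to 4.00 with tofacitinib, 3.18 and 3.35 with ruxolitinib and 3.04 and 3.36 with DMSO, against 3.44 to 4.88 at day 0. Lepr, the leptin receptor, rose with tofacitinib (1.48 ± 0.48, limma adjusted p = 0.0189, and 0.0882 without tofacitinib mouse 8), and stood at 1.33 ± 0.56 with ruxolitinib (0.0787, and 0.0145 without the day-0 array of mouse 1) and 0.80 ± 0.56 with DMSO (0.243). Of 6 adipocyte markers 2 rose with tofacitinib, 1 with ruxolitinib and 1 with DMSO. Of all genes 22.7%, 12.5% and 22.2% rose in these arms, so the counts do not set the markers apart from other genes. The adipocyte markers had summed levels of 14368 to 17827 with tofacitinib, 14898 to 17626 with ruxolitinib and 14005 to 14687 with DMSO, against 1465 to 13724 at day 0, and their part in the Lepr values was not tested.

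Of 21 signal mediators and regulators, 19 were tested. With tofacitinib 10 fell and 3 rose, with ruxolitinib 9 were lower and 2 higher, and with DMSO 8 were lower and 4 higher. Of all genes 27.4%, 21.4% and 28.9% fell and 22.7%, 12.5% and 22.2% rose in these arms. Their median log2 difference was -0.38, -0.12 and -0.22 in these arms. Socs3, the feedback inhibitor that binds gp130, had log2 values of 7.56 to 8.36 with tofacitinib, 7.92 and 8.11 with ruxolitinib and 9.11 and 9.81 with DMSO, against 9.13 to 10.53 at day 0. All inhibitor arrays lay below all DMSO and day-0 arrays. Against day 0 Socs3 stood at -1.81 ± 0.25 with tofacitinib (limma adjusted p = 5.93e-05), -1.85 ± 0.29 with ruxolitinib (0.000314) and -0.43 ± 0.29 with DMSO (0.235). Against DMSO it stood 2.6-fold lower with tofacitinib (-1.38 ± 0.35, limma adjusted p = 0.146) and 2.68-fold lower with ruxolitinib (-1.42 ± 0.38, adjusted p = 0.0919), and the mean of both at -1.40 ± 0.32 (adjusted p = 0.055) did not pass either. The mean passed without tofacitinib mouse 9 (0.0324), without the day-0 array of mouse 1 (0.0386) and with quantile normalization (0.048), all limma adjusted p. Of the kinases that the receptors carry, Tyk2 fell by 1.47 ± 0.18 with tofacitinib, 1.35 ± 0.21 with ruxolitinib and 1.73 ± 0.21 with DMSO (limma adjusted p = 2.04e-05, 0.000296 and 2.34e-05; 0.0637 for ruxolitinib under the mouse block), while Jak1 did not pass (-0.21, -0.07 and 0.08; -0.47 at 0.0149 with tofacitinib without mouse 7).

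Jak2 did not pass by its main probe set (0.09, 0.11 and 0.11 with tofacitinib, ruxolitinib and DMSO), but its other probe set, 1421065_at, rose by 1.34 ± 0.21, 1.11 ± 0.25 and 1.53 ± 0.25 (limma adjusted p = 0.000197, 0.00366 and 0.000248). The mean of both Jak2 probe sets passed in these arms too (0.71, 0.61 and 0.82; limma adjusted p = 0.000609, 0.00707 and 0.000669). By its main probe set Stat3 fell with tofacitinib by 0.38 (limma adjusted p = 0.0239) and with ruxolitinib by 0.55 (0.0122), and stood at -0.12 with DMSO (0.533), where it passed with the mean of its probe sets (-0.52, 0.0341). The Stat3 calls were lost without tofacitinib mouse 8 (limma adjusted p = 0.181) or 9 (0.0712), without ruxolitinib mouse 6 (0.219) and, for ruxolitinib, under the mouse block (0.198). Stat3 probe set 1426587_a_at was lower with tofacitinib (-0.87, limma adjusted p = 0.00204) and DMSO (-0.79, 0.00992), and stood at -0.49 with ruxolitinib (0.101). Probe set 1459961_a_at was lower with tofacitinib (-0.89, limma adjusted p = 0.0325), and stood at -0.49 with ruxolitinib (0.331) and -0.61 with DMSO (0.189). Which arms had a Stat3 call therefore depended on the probe set. Ptpn6, the phosphatase SHP-1, fell by 1.80 ± 0.20, 2.10 ± 0.23 and 2.28 ± 0.23, and Pias3, an inhibitor of STAT3, fell by 1.50 ± 0.14, 1.19 ± 0.16 and 1.71 ± 0.16 with tofacitinib, ruxolitinib and DMSO, with limma adjusted p of at most 0.000121. Stat5a, a transcription factor that other cytokine receptors also use, fell by 1.22 ± 0.14 with tofacitinib (limma adjusted p = 1.48e-05), 0.96 ± 0.17 with ruxolitinib (0.000649) and 0.80 ± 0.17 with DMSO (0.00154, and 0.0664 without DMSO mouse 3). Ptpn6, Pias3, Stat5a and Tyk2 were named for the smallest p against day 0 in this list. Their calls against day 0 follow from that choice and do not describe the list. Against DMSO 0 of the 19 passed in limma, with 2 at an unadjusted p under 0.05 with tofacitinib, 5 with ruxolitinib and 2 for the mean, Socs3 among them each time. At that threshold 8.4%, 15.7% and 13.9% of all genes passed in the same comparisons.

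Of 24 STAT3 target and oncostatin M response genes, 20 were tested. With tofacitinib 6 rose and 4 fell, and with ruxolitinib and with DMSO 4 were higher and 3 lower in each. These are 10, 7 and 7 of 20, where 50.1%, 34.0% and 51.1% of all genes were called, and 3 of the 20 passed the filter through the arrays of 1 day alone, so the counts do not set the list apart from other genes. Their median log2 difference was 0.53, 0.30 and 0.20 in these arms. Il4ra, the interleukin-4 receptor chain, fell by 2.08 ± 0.29 with tofacitinib, 1.68 ± 0.34 with ruxolitinib and 1.42 ± 0.34 with DMSO (limma adjusted p = 6.14e-05, 0.0018 and 0.00332; under the mouse block 0.0947 with ruxolitinib and 0.102 with DMSO, and 0.0637 with DMSO without DMSO mouse 3). Il1r1, the interleukin-1 receptor, fell by 1.72 ± 0.29 with tofacitinib, 1.24 ± 0.34 with ruxolitinib and 1.53 ± 0.34 with DMSO (limma adjusted p = 0.000312, 0.0124 and 0.00217). The ruxolitinib call was lost under the block (0.215) and without ruxolitinib mouse 4 (0.072) or 6 (0.127), as limma adjusted p. Vegfa, an angiogenic growth factor, rose by 1.49 ± 0.30, 1.25 ± 0.35 and 2.29 ± 0.35 in these arms, and with ruxolitinib this was lost under the block (limma adjusted p = 0.106) and without ruxolitinib mouse 4 (0.184). Cxcl1, a neutrophil chemoattractant, passed the filter through day-5 arrays alone, and its log2 values were 3.88 to 6.11 with tofacitinib, 4.96 and 6.12 with ruxolitinib and 4.64 and 4.92 with DMSO, against 2.01 to 3.69 at day 0, given without a test. Il4ra, Il1r1, Vegfa and Cxcl1 were named for the smallest p against day 0 in this list, so the calls given for them follow from that choice. Against DMSO 0 of the 20 passed in limma, with 3 at an unadjusted p under 0.05 with tofacitinib, 5 with ruxolitinib and 4 for the mean, where 8.4%, 15.7% and 13.9% of all genes passed. Of these genes 2 were higher and 1 lower with tofacitinib, 2 higher and 3 lower with ruxolitinib, and 2 higher and 2 lower for the mean. The higher ones were S100a8 and S100a9 each time, subunits of calprotectin that neutrophils and activated keratinocytes make. Bcl3 was among the lower ones each time, with Mcl1 and Vegfa for ruxolitinib and Vegfa for the mean. S100a8, S100a9, Bcl3 and Mcl1 are named after their values were seen. S100a9 had log2 values of 5.83 to 7.40 with tofacitinib, 5.87 and 6.43 with ruxolitinib and at most 4.71 with DMSO, against 4.27 to 6.89 at day 0.

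Against DMSO S100a9 stood at 1.91 ± 0.64 with tofacitinib (limma adjusted p = 0.316) and 1.66 ± 0.70 with ruxolitinib (0.264), and S100a8 at 1.14 ± 0.42 (0.381) and 1.10 ± 0.46 (0.258). Against day 0 S100a9 rose with tofacitinib (1.29 ± 0.46, limma adjusted p = 0.0288), a call lost under the block (0.0891) and without tofacitinib mouse 7 (0.0824) or 8 (0.176), and stood at 1.04 with ruxolitinib (0.145; 1.88 at 0.029 under the block) and -0.62 with DMSO (0.35). S100a8 stood at 0.73 with tofacitinib (limma adjusted p = 0.0543), and passed with quantile normalization (0.0367), without tofacitinib mouse 9 (0.0179) and without the day-0 array of mouse 1 (0.0369). Both also stood in the list of neutrophil markers as its 2 tested genes, while Cxcr2, Csf3r, Mpo and Elane of that list lay at background in all arrays. The summed level of the neutrophil markers was 88 to 228 with tofacitinib, 105 to 123 with ruxolitinib and 43 to 56 with DMSO, against 43 to 149 at day 0. With the other measured genes of the list at background, this sum mainly repeats S100a8 and S100a9 and is no separate measure of neutrophils. The part of neutrophils in these values was not tested.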

How the data were processed

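The authors deposited log2 values, 1 for each probe set and array, and the submitters' processing notes name GCRMA, a method that corrects background, normalizes and summarises probes; its version is not given in the sources used here. Per the labels' protocols, RNA came from flash-frozen whole skin with a commercial kit, and amplified cDNA was labelled with biotin. Of 45101 probe sets, 34958 had exactly 1 gene symbol in the platform annotation, and 20992 of these passed the filter (log2 above 4 in at least 2 arrays). The number of arrays limits the precision.

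The test was limma (3.58.1, R 4.3.3), with 4 group means on 16 arrays, the mouse as a random block (consensus correlation 0.0982), empirical Bayes moderation and Benjamini-Hochberg adjustment over 12087 genes per comparison, called at an adjusted p under 0.05. Errors are standard errors and intervals 95% intervals of that fit. The 4 groups share 1 estimate of the spread per gene, to which the 9 day-0 arrays contribute most. P-values measure that pooled spread between these mice, also in the comparisons among day-5 groups. The mouse pairs day 0 with day 5, per the labels; deviations from group means correlated above 0.1 in 2 of 7 pairs (-0.183 to 0.178). In simulated data of 12087 genes, 100 were changed by a log2 value of 1 and 100 by 2. Of those changed by 1, 75%, 60% and 61% were recovered with tofacitinib, ruxolitinib and DMSO against day 0. Of those changed by 2, 96%, 91% and 85% were recovered in the same order, and 3.9%, 5.6% and 4.6% of the calls were false. Far fewer genes were changed there than were called in the data, so these rates may not hold for the data.

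The members and lists were chosen with earlier results of these data known. Named are all members with every probe set, and genes from 4 lists (other ligands, related receptors, signal mediators, STAT3 target and oncostatin M response genes). From each list these were those among the 4 with the smallest p against day 0, with Socs3, Jak1, Jak2, Tyk2 and Stat3. Also fixed were 10 lists of cell type markers. S100a8, S100a9, Bcl3 and Mcl1 were named after their values were seen. A gene that passed the filter through the arrays of 1 day alone is given by its levels. For each tested member the genes with the highest Pearson r were also named. Alternatives were the mouse as a fixed block, no filter, the mean of the kept probe sets, quantile normalization and each day-5 array left out. Chosen after seeing the data were each other probe set on its own, those alternatives for Osmr probe set 1459217_at, and leaving out the day-0 array of mouse 1. The fixed block leaves fewer residual degrees of freedom than the 12 of the main fit. A call lost under the block thus need not mean a smaller difference.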

Additional observations from a re-analysis of the deposited data

Results flagged for a closer look

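The Il6st value of the day-0 array of mouse 1 (probe set 1452843_at, log2 9.78) lay far from the other day-0 arrays relative to their range. It was the 1 far value among 18 day-0 groups examined, of which chance gives about 1 in 20.

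The second Osmr probe set (1459217_at) was lower with ruxolitinib than with DMSO by the test of the difference itself (log2 difference -2.32, limma adjusted p = 0.0242), while the main Osmr probe set stood at -0.59 (adjusted p = 0.243). The part that the summed levels of cell type markers had in it was not tested.

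The within-mouse values of 1 arm had the opposite sign to those of another in Il6st and Osm, and neither difference was tested. The Il6st main probe set changed within mice by a mean of 0.45 with tofacitinib, -0.07 with ruxolitinib and 0.66 with DMSO. For Osm the means were 0.22 with tofacitinib, 0.09 with ruxolitinib and -0.12 with DMSO, but none of the 16 values exceeded the highest control, so these differences cannot be told from background and give no direction.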

How the results depend on the processing

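Over the alternatives, 418 of the members' values kept their direction and side of the threshold, 42 no longer passed, 13 newly passed and 30 turned sign. These counts take in every comparison, and also values that were not called in the main fit and stayed so. They therefore do not give the share of calls that held. With the mouse as a fixed block, which the pairing by animal allows, 1324 genes passed with ruxolitinib (4104 otherwise) and 3701 with DMSO (6178) against day 0, and 0 in each of the 4 limma comparisons among day-5 groups (430 for tofacitinib, 1893 for ruxolitinib and 1039 for the mean against DMSO and 1492 between the drugs at an unadjusted p under 0.05), and members lower with ruxolitinib came to 0 (3 otherwise). The other member calls against day 0 held under the block. Signs turned under the block for Il6st with ruxolitinib against day 0 (-0.07), Lifr with ruxolitinib (0.37) and the mean of both inhibitors (0.16) against DMSO, Il31ra with tofacitinib against DMSO (0.14), and Osmr (-0.16) and Il6ra (-0.19) for tofacitinib against ruxolitinib, none of them called. With the mean of the kept probe sets, 110 genes passed for ruxolitinib against DMSO (63 otherwise), 12 for tofacitinib against DMSO (20) and 5 for tofacitinib against ruxolitinib (3); members lower and higher with tofacitinib came to 2 and 0 (4 and 1), members higher with DMSO to 2 (1), and members lower against DMSO to 1 for ruxolitinib and 1 for the mean (0 and 0). Osmr turned to 1.23 with DMSO against day 0, Lifr to 0.02 between the drugs, Jak1 to 0.04 with tofacitinib and the change of Osmr minus Lifr to 0.59 (-0.31 otherwise). Without the filter 11 genes passed for tofacitinib (20) and 71 for the mean of both (113) against DMSO, and members higher came to 2 with tofacitinib and 1 with ruxolitinib, since Il6 (0.52 with tofacitinib, limma adjusted p = 0.0314, and 0.61 with ruxolitinib, 0.0433) and Osm (0.24 with tofacitinib, 0.0197) then passed, at values mostly at or under the highest control value that give no direction, while Il6st with tofacitinib (0.0535) did not; quantile normalization left 0 members higher with tofacitinib. By other probe sets, Il6st 1437303_at turned to -0.81 with tofacitinib, -0.49 with ruxolitinib and -0.60 with DMSO against day 0, to 0.10 for ruxolitinib against DMSO and -0.32 between the drugs. Osmr 1459217_at turned to 0.74, 0.55 and 2.87 with tofacitinib, ruxolitinib and DMSO, Lifr 1425107_a_at to 0.08 with DMSO and 0.23 between the drugs, and Il31ra 1445095_at to 0.24 for tofacitinib and 0.11 for the mean against DMSO. The cause was not tested.

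Leaving out 1 array at a time gave 3969 to 6344 genes with tofacitinib, 1999 to 4470 with ruxolitinib and 3470 to 6487 with DMSO against day 0, 0 to 126 for tofacitinib, 1 to 259 for ruxolitinib and 0 to 374 for the mean against DMSO, and 1 to 9 between the drugs. Members lower ran from 3 to 4, 1 to 3 and 1 to 4 and members higher from 0 to 1, 0 to 0 and 0 to 1 with tofacitinib, ruxolitinib and DMSO, and the change of Osmr minus Lifr from -0.45 to -0.23. Without the day-0 array of mouse 1, 32 genes passed for tofacitinib and 105 for ruxolitinib against DMSO. Signs turned for uncalled values near 0. Lifr with ruxolitinib against DMSO went to 0.02 without DMSO mouse 2, 0.13 without ruxolitinib mouse 4 and 0.04 without tofacitinib mouse 7. Il6ra against DMSO ran from -0.38 without DMSO mouse 2 to 0.42 without ruxolitinib mouse 4 with ruxolitinib (-0.13 without mouse 6), and from -0.11 without DMSO mouse 2 to 0.69 without DMSO mouse 3 for the mean. Between the drugs Osmr ran from -0.17 without tofacitinib mouse 7 to 0.22 without ruxolitinib mouse 6 (-0.11 without mouse 4), and Il31ra from -0.22 without tofacitinib mouse 8 to 0.42 without mouse 9 (-0.09 without ruxolitinib mouse 4). Ctf1 with DMSO against day 0 went to -0.26 without DMSO mouse 2 and passed without DMSO mouse 3 (0.55, limma adjusted p = 0.0278). Signal near background limited Osm, Il6 and Lif.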
